A study of Mus musculus with 11 samples.

Results

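The metastatic mouse melanoma line 4C11+ was compared with the rest of its series in bulk total RNA sequencing. Its members are the 3 libraries titled as 4C11+ replicates, of 11 libraries in all, and they were set against the 8 libraries of the 3 other lines. Those are melan-a, an immortalized melanocyte line that forms no tumours (2 libraries, replicates 2 and 3; replicate 1 was not analysed here), 4C, a premalignant line that forms no tumours either (3 libraries), and 4C11-, a melanoma line that does not metastasize (3 libraries). 4C, 4C11- and 4C11+ were derived from melan-a by repeated cycles in which the cells were kept from attaching. All were grown in RPMI with 5% fetal bovine serum, and melan-a alone also received 200 nM PMA (phorbol myristate acetate, an activator of protein kinase C), so for melan-a line and PMA cannot be told apart. 4C11+ is a single line, so its values describe that line and not metastatic melanoma in general.

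Melanocytes make the pigment melanin in melanosomes, organelles related to lysosomes. Tyrosinase, encoded by Tyr, and its relatives Tyrp1 and Dct carry out the synthesis, Pmel builds the fibrils on which pigment is laid down, and the transcription factors Mitf and Sox10 keep these genes on. Melanoma cells can move between a pigmented state with high Mitf and an undifferentiated, mesenchymal state with little of it, and the loss of the Cdkn2a locus, which encodes p16 and p19Arf, is a classical lesion of melanoma.

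Values are log2 CPM (read counts scaled to a common library size) as the authors deposited them, for 14272 genes. Differences are given in log2 units, as the 4C11+ mean minus the mean of the 3 other line means, with the standard error of the limma fit. Calls of 2 kinds were made with limma at an adjusted p under 0.05: against the mean of the 3 other lines, and against every other line, in which a gene had to differ from melan-a, 4C and 4C11- each in the same direction. Estimated from the steps of the lowest values as if they were plain CPM, depth was 4190000, 4070000 and 5470000 reads in the 4C11+ libraries. It ran from 3500000 to 7420000 reads in the others. All libraries share their highest value, as after quantile normalization, which also moves the low steps. These figures are thus rough and may differ from the true read depths. The value of 3 reads served as the floor, and a gene with no library of a line above it is described as having no more than 3 reads there, with its difference given as a bound (at least).

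The 3 4C11+ libraries lay close together: in their 3 pairs, 3 of 9722, 9 of 9854 and 11 of 9906 genes above a log2 CPM of 3 in either library differed by more than 3 units. The 2 melan-a libraries lay far apart, with 252 of 10046 such genes differing by more than 3 units, and so did 4C11- replicates 1 and 3, with 288 of 10132. Tnc, which encodes the matrix glycoprotein tenascin C, stood at 8.30 in melan-a replicate 2 and at -1.42 in replicate 3. Tyrp1 went the other way, at 8.51 in melan-a replicate 2 and 12.63 in replicate 3. Calls stated below that were lost without one of its libraries are named as such.

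Against the mean of the other lines, 4856 genes passed the test (34.0% of 14272), 2607 higher in 4C11+ (18.3%) and 2249 lower (15.8%). Leaving out 4C11+ replicate 1 brought these counts to 3001, 1471 and 1530, and leaving out 4C11+ replicate 2 brought them to 3038, 1492 and 1546. Against every other line, 728 genes passed (5.10%), 315 higher (2.21%) and 413 lower (2.89%). That count was 407 without melan-a replicate 2, 348 without 4C11+ replicate 1 and 387 without 4C11+ replicate 2. The higher genes among them numbered 171, 99 and 121 in the same 3 settings, 197 without 4C replicate 2 and 187 without 4C11- replicate 2, and the lower genes numbered 236, 249 and 266 without melan-a replicate 2, 4C11+ replicate 1 and 4C11+ replicate 2. Array quality weights gave 8720 (4724 and 3996, or 33.1% and 28% of all genes, the shares for reading every count with these weights) and, against every line, 1434 (736 and 698). All 3 4C11+ libraries lay above all 8 others for 1787 genes (12.5%) and below all of them for 1158 genes (8.11%). The median difference over all genes was 0.08, or 0.10 with genes under the floor set to 3 reads. It was 0.03 against melan-a, 0.08 against 4C and 0.12 against 4C11-, comparisons that share the 4C11+ libraries.

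The deposited genes had to reach 1 CPM in at least 4 libraries, so a gene expressed in the 3 4C11+ libraries and nowhere else could not appear, whereas a gene silent in 4C11+ and expressed elsewhere could. Accordingly no gene was at or under 3 reads in all 8 other libraries. At or under 3 reads in every 4C11+ library were 1021 genes, against 683 in both melan-a, 342 in all 4C and 204 in all 4C11- libraries. That order does not follow from the filter, which treats silence in any single line alike. Single libraries held 1388 to 1784 such genes in 4C11+ and 522 to 1327 elsewhere. These counts also vary with depth, and the part of depth was not tested. Of the 1021 genes, 654 rose above 3 reads in at least 1 library of each other line, and 145 of the 654 also passed against every other line. A further group of 150 genes was at or under 3 reads throughout 4C and 4C11-, and 148 of them were higher in 4C11+ than the mean of the other lines. The filter let such genes in only through the melan-a and 4C11+ libraries, so that they stand above 4C and 4C11- is set by it. More widely, a gene high in 4C11+ needed only 1 further library at 1 CPM. Shares of a list that passed are given below in percent, to be read against the 18.3% and 15.8% over all genes.

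The pigment genes were the most uniform group. All 12 listed genes of melanin synthesis and melanosome proteins were measured and all 12 were higher in 4C11+, with a median difference of 6.80 (6.54 with absent genes at the floor, against 0.08 over all genes). Their median difference was 1.96 from melan-a, 9.17 from 4C and 9.44 from 4C11-. Of the 12, Tyr, Oca2, Gpr143 and Trpm1 had no more than 3 reads in any 4C or 4C11- library, so the filter admitted them only through melan-a and 4C11+, and for these 4 the order against 4C and 4C11- is set by it. In bulk RNA, more pigmented cells and more of these transcripts per cell cannot be told apart.

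Pmel (ENSMUSG00000025359, chr10:128704195-128720238, GRCm38), which encodes the fibril protein of the melanosome, stood at 2.41 and 2.95 in melan-a, 0.60, -0.42 and 1.05 in 4C, 2.54, 0.96 and 0.60 in 4C11-, and 12.20, 11.72 and 11.81 in 4C11+. The 4C11+ libraries were all far above every other library, melan-a included. The difference was 10.42 ± 0.42 (adjusted p = 2.04e-08), made of 9.23 above melan-a, 11.50 above 4C and 10.54 above 4C11-. Tyr (ENSMUSG00000004651, chr7:87424771-87493512, GRCm38), the gene of the rate-limiting enzyme tyrosinase, stood at -0.25 and 1.29 in melan-a and 8.46, 8.39 and 8.70 in 4C11+, and had no more than 3 reads in any 4C or 4C11- library. Tyr was thus near the floor even in melan-a and high in all 3 4C11+ libraries, at least 9.29 above the mean of the other lines (adjusted p = 3.44e-08). Pmel, Tyr and Trpm1 were the 3 pigment genes that also passed against every other line, with adjusted p of 1.94e-06, 9.48e-06 and 0.0452. Trpm1, a cation channel gene of melanocytes, lost that call without any 1 of 9 libraries: melan-a replicate 2 (0.388), 4C replicate 1 (0.0575), 4C replicate 2 (0.0719), 4C replicate 3 (0.0687), 4C11- replicate 2 (0.0648), 4C11- replicate 3 (0.0544), 4C11+ replicate 1 (0.141), 4C11+ replicate 2 (0.199) and 4C11+ replicate 3 (0.0775).

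The other 9 pigment genes did not pass against every line, and for each of them melan-a was the line nearest to 4C11+. Dct, whose product dopachrome tautomerase acts after tyrosinase, stood at 9.04 and 10.81 in melan-a, 0.87, 0.26 and -2.44 in 4C, -0.24, -2.58 and -2.01 in 4C11-, and 11.81, 11.39 and 11.91 in 4C11+. It was 9.08 ± 0.69 above the mean of the other lines (adjusted p = 2.32e-06) but only 1.78 above melan-a. Tyrp1, which encodes a tyrosinase-related oxidase, stood at 8.51 and 12.63 in melan-a, -0.04, -1.01 and 0.06 in 4C, 0.69, -3.15 and -3.15 in 4C11-, and 11.64, 11.64 and 11.39 in 4C11+. Its 4C11+ values fell between the 2 melan-a libraries, and all 4C and 4C11- libraries were far lower. Mlana, which encodes the melanoma antigen MART-1, stood at 6.73 and 8.40 in melan-a, -2.44, -2.44 and -0.70 in 4C, 0.06, -3.15 and -2.44 in 4C11-, and 9.48, 9.54 and 9.26 in 4C11+. All 3 4C11+ libraries lay above both melan-a libraries, and the difference from the mean was 8.14 ± 0.65 (adjusted p = 3.5e-06).

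The transporter and receptor genes of the melanosome followed the same order. Slc45a2, a melanosomal proton and sugar carrier, was 7.48 ± 0.67 above the mean of the other lines and 2.41 above melan-a. Slc24a5, a potassium-dependent sodium and calcium exchanger, was 5.59 ± 0.59 above the mean and 2.83 above melan-a, which stood at 3.41 and 6.21. Gpr143, a melanosomal G protein-coupled receptor, was at least 5.03 above the mean and 2.06 above melan-a. Each of these 3 genes was higher in every 4C11+ library than in any other library. Oca2, which encodes a melanosomal anion channel, and Mc1r, the receptor for melanocyte-stimulating hormone, overlapped with melan-a, with differences from melan-a of 1.46 and 0.17, Oca2 with melan-a split between 0.06 and 4.56. Gpnmb, a transmembrane glycoprotein related to Pmel, was present in all lines, at 11.64 and 11.15 in melan-a, 9.10, 8.67 and 10.43 in 4C, 9.01, 7.85 and 6.61 in 4C11-, and 12.42, 11.91 and 11.72 in 4C11+. It was the least changed of the 12, at 2.48 ± 0.46 (adjusted p = 0.00173).

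**Figure D1:**
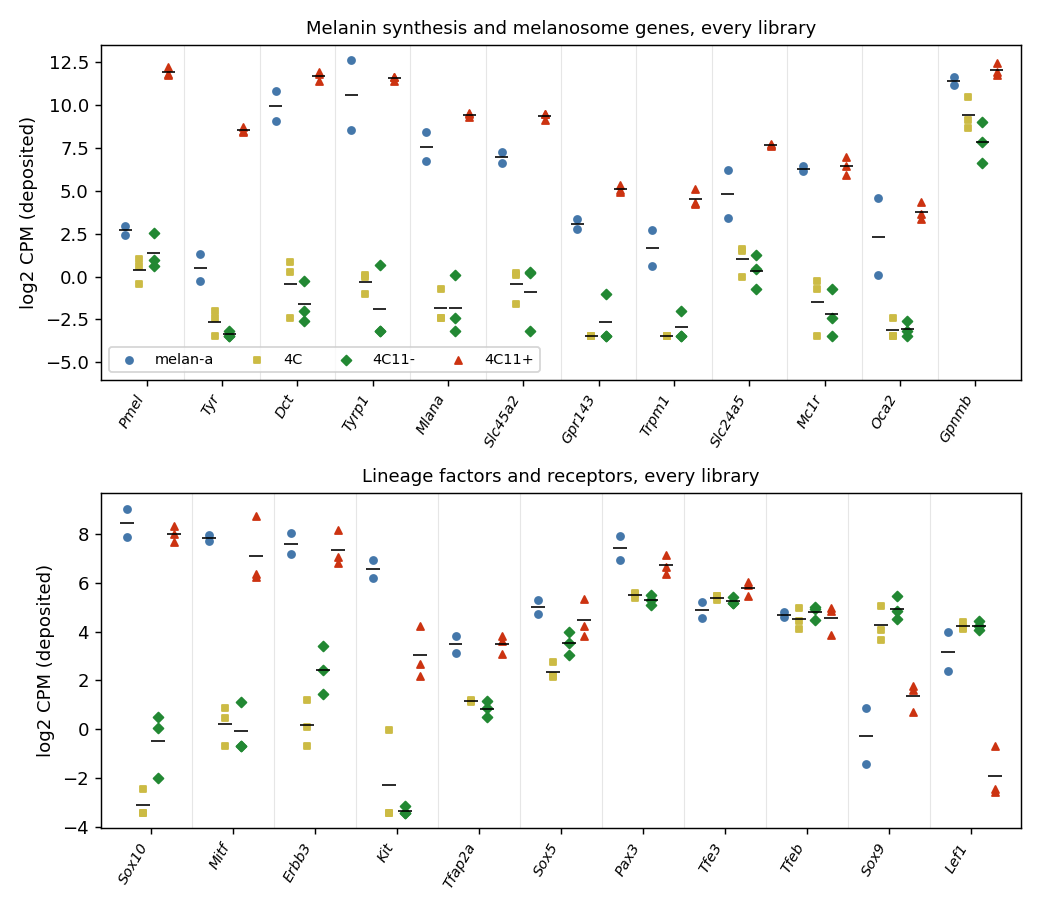
Log2 CPM of the 12 pigment genes (top) and the 11 measured lineage factors (bottom) in every library, one point per library and a bar for the line mean, genes ordered by their difference. Pmel and Tyr are high in 4C11+ alone, whereas Sox10, Mitf, Erbb3 and most pigment genes are high in both melan-a and 4C11+.

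Because these genes moved together, their promoters were read for the 6 letters that Mitf and related factors bind. The window ran from 250 bases before to 50 bases after each start in the RefSeq table (GRCm38.p6), and 8 of the 12 genes had an entry, with 9 promoters. Both strands were searched for CATGTG, which on the other strand reads as CACATG, and for CACGTG, a palindrome. CATGTG was present in 8 of the 9 promoters, those of 7 of the 8 genes, and in 14.2% of all 32851 promoters in the table. CACGTG was present in 1 of the 9 and in 7.15% of all promoters, and 20.4% of all promoters held either. Gpnmb held neither in this window. A match describes letters and shows no binding. The last 150 bases before the start are printed for 4 promoters with a match in them, 5′ to 3′ on the gene's own strand, with the matches in capitals:

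Tyr, chr7:87493513-87493662, - strand: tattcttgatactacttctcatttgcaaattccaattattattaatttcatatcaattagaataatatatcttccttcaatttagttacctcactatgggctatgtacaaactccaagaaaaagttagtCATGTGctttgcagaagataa

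Tyrp1, chr4:80834063-80834212, + strand: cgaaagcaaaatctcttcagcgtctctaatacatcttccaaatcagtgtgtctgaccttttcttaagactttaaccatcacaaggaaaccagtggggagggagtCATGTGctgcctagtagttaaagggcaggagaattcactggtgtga

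Dct, chr14:118052247-118052396, - strand: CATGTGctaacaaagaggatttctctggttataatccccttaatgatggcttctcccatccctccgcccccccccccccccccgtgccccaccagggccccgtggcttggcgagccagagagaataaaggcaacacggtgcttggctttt

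Slc24a5, chr2:125067977-125068126, + strand: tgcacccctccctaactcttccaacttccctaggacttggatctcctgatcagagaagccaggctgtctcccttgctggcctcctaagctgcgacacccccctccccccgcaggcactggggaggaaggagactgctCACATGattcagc

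Genes that build and move melanosomes were raised less evenly. Of 28 listed, 27 were measured, 14 were higher in 4C11+ (51.9%) and 1 was lower (3.7%, with 0 without 4C11+ replicate 1 and 2 without melan-a replicate 3), with a median difference of 0.81. Rab38, a small GTPase that sorts Tyrp1 to melanosomes, stood at 1.77 and 6.18 in melan-a and 8.34, 8.38 and 8.46 in 4C11+, and had no more than 3 reads in any 4C or 4C11- library. The filter admitted Rab38 only through melan-a and 4C11+ and thus sets its order against 4C and 4C11-. All 3 4C11+ libraries were above melan-a, and the difference from the mean was at least 8.01 (adjusted p = 3.02e-06). Its call against every other line was lost without melan-a replicate 2 (0.0777), 4C11+ replicate 1 (0.0752), 4C11+ replicate 2 (0.0718) and 4C11+ replicate 3 (0.0525). Rab27a, the GTPase that tethers melanosomes to actin motors, was 3.47 ± 0.38 higher (adjusted p = 3.79e-05), and Mreg, a cargo adaptor in melanosome transfer, was 3.03 ± 0.28 higher (adjusted p = 1.08e-05). Both were above every other library in all 3 4C11+ libraries and passed against every line, Rab27a not without melan-a replicate 2 (0.0723) and Mreg not without melan-a replicate 3 (0.0529). Sytl2, which encodes a Rab27 effector, was higher than the mean by at least 3.02 (adjusted p = 0.000496) but 1.56 below melan-a, and lost its call with the 4C line left out (adjusted p = 0.0575).

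The transcription factors of the lineage did not rise above melan-a as the pigment genes did. Of 15 listed lineage factors and receptors 11 were measured, 6 were higher in 4C11+ than the mean of the other lines (54.5%) and 2 were lower (18.2%, with 1 without any of the 3 4C11+ libraries in turn), with a median difference of 0.83. Against melan-a alone the median was -0.45. Sox10, a neural crest factor upstream of Mitf, stood at 9.05 and 7.88 in melan-a, 0.48, 0.06 and -2.01 in 4C11-, and 8.02, 7.68 and 8.34 in 4C11+, and had no more than 3 reads in any 4C library. Mitf, the main regulator of pigment cells, stood at 7.73 and 7.97 in melan-a, 0.87, -0.70 and 0.44 in 4C, -0.70, 1.14 and -0.70 in 4C11-, and 6.38, 6.23 and 8.76 in 4C11+. For both genes the melan-a and 4C11+ libraries overlapped and all 4C and 4C11- libraries were far lower. The differences from the mean were at least 5.77 for Sox10 (adjusted p = 3.54e-06) and 4.47 ± 0.59 for Mitf (adjusted p = 0.000162). Erbb3, a neuregulin receptor of the melanocyte lineage, and Tfap2a, a factor that works with Mitf, had the same order, 3.94 ± 0.49 and 1.68 ± 0.31 above the mean and 0.26 below and 0.03 above melan-a.

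Some lineage genes separated 4C11+ from melan-a. Kit, the receptor for stem cell factor, stood at 6.92 and 6.18 in melan-a, -0.04, -3.44 and -3.44 in 4C, and 2.69, 2.17 and 4.22 in 4C11+, and had no more than 3 reads in any 4C11- library. The 4C11+ libraries lay 3.53 below melan-a and above all 4C and 4C11- libraries, and the call against the mean (adjusted p = 0.0129) was lost without 4C11+ replicate 3 (0.0738). Lef1, a transcription factor of the Wnt pathway, stood at 3.97 and 2.37 in melan-a, 4.13, 4.11 and 4.41 in 4C, and 4.25, 4.44 and 4.06 in 4C11-, and had no more than 3 reads in any 4C11+ library. It was expressed in all 8 other libraries and at least 3.86 lower in 4C11+ (adjusted p = 3.15e-06 against the mean and 0.000472 against every line). Sox9, a factor of neural crest and cartilage, was at 1.60, 1.78 and 0.69 in 4C11+, below 4C and 4C11- and above or near melan-a. Its call (adjusted p = 0.0254) was lost without 4C11+ replicate 1 (0.0653), 4C11+ replicate 2 (0.0502) and 4C11+ replicate 3 (0.109). Tfe3, a relative of Mitf that controls lysosomal genes, was 0.63 ± 0.21 higher (adjusted p = 0.0354), a call lost without any 1 of 8 libraries: melan-a replicate 3 (0.059), 4C replicate 1 (0.0502), 4C replicate 2 (0.0596), 4C replicate 3 (0.0514), 4C11- replicate 2 (0.0651), 4C11- replicate 3 (0.0519), 4C11+ replicate 1 (0.19) and 4C11+ replicate 2 (0.147). Pax3, Sox5 and Tfeb did not pass, with differences of 0.63, 0.83 and -0.11 and adjusted p of 0.0649, 0.0865 and 0.799. Pax3 passed without melan-a replicate 2 (0.80, adjusted p = 0.0158) and without 4C11- replicate 1 (0.67, adjusted p = 0.0487).

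Markers of cell types were read as summed levels per library, in CPM off the log scale. The 8 measured melanocyte markers of 9 listed summed to 12900, 10600 and 11900 in 4C11+, to 1870 and 9030 in melan-a, and to between 3.11 and 11.6 in 4C and 4C11-. Per kilobase of exon, Pmel was the most abundant of them in 4C11+, at 1700. The 4C11+ label as a melanoma of melanocyte origin is thus matched by its markers, whereas 4C and 4C11- hardly expressed them. Of 7 listed Schwann cell markers 5 were measured, summing to 238, 215 and 412 in 4C11+, to 502 and 212 in melan-a and to between 10.6 and 24.8 elsewhere, with S100b the most abundant per kilobase in 4C11+ and Egr2 at no more than 3 reads. One of them, Ngfr, the low-affinity neurotrophin receptor, stood at -0.70, -1.61 and 0.44 in 4C, 0.48, 0.60 and -1.50 in 4C11-, and 3.53, 3.44 and 4.39 in 4C11+, and had no more than 3 reads in any melan-a library. It was at least 4.17 higher in 4C11+ (adjusted p = 0.000203) and above every other library in all 3. Gfap, a marker of glial cells, is not among the deposited genes.

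Of 8 fibroblast markers only Col1a1, Col3a1 and Pdgfra were measured. They summed to 9.4, 8.3 and 9.5 in 4C11+, to 85.9 and 17.9 in melan-a and to between 1660 and 2210 in 4C and 4C11-. Col3a1 was at no more than 3 reads in 4C11+, and Col1a1 was the most abundant of them there per kilobase, at 0.53. The 3 measured leukocyte markers of 8, Csf1r, Cd68 and Lyz2, summed to 20.2, 15.7 and 9.11 in 4C11+ and to between 7.64 and 96.8 in the others, with the highest value in melan-a replicate 2 and none past the test. Lyz2 was the most abundant of them per kilobase in 4C11+, at 5.79. Of 8 keratinocyte markers Krt10 and Cdh1 were measured, summing to 1.54, 1.03 and 0.783 in 4C11+ and to between 1.31 and 5.11 elsewhere. The only endothelial marker measured of 7, Cdh5, had no more than 3 reads in any 4C11+ library. It reached 106, 172 and 92.9 in 4C11-, 16.1, 0.616 and 1.36 in 4C, and 0.113 and 0.374 in melan-a. The part of any such cell type in the differences was not tested.

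Besides pigment genes, several genes of other kinds were high in 4C11+ and near the floor in the other lines. Nup210, which encodes a membrane protein of the nuclear pore, stood at -0.70, 0.69 and 0.44 in 4C, 1.65, 0.06 and -3.15 in 4C11-, and 7.79, 7.84 and 7.92 in 4C11+, and had no more than 3 reads in any melan-a library. The 3 4C11+ values nearly coincided and no other library came near them, with a difference of at least 8.09 (adjusted p = 6.98e-06). Gsdmc, a member of the pore-forming gasdermins, stood at -3.15 and 1.67 in melan-a and 6.80, 6.62 and 7.38 in 4C11+, and had no more than 3 reads in any 4C or 4C11- library. Its difference was at least 8.12 (adjusted p = 6.62e-06), with melan-a replicate 3 the only other library above the floor. Abcc2, an efflux pump for organic anions, was at 7.23, 7.09 and 6.84 in 4C11+ and at no more than 0.06 in any other library, at least 8.22 higher (adjusted p = 4.8e-07).

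Marcksl1, an actin-binding substrate of protein kinase C, was at 7.10, 7.04 and 7.60 in 4C11+ and at 0.48 or less elsewhere, at least 8.61 higher (adjusted p = 4.41e-06). Chchd10, a protein of the mitochondrial intermembrane space, was at 7.09, 6.75 and 6.23 and at 0.06 or less elsewhere, at least 7.81 higher (adjusted p = 4.08e-06). These 5 genes stood at 1.67 or less in every other library. Outside 4C11+, Marcksl1 and Chchd10 were above a log2 CPM of 0 only in 4C11- replicate 1, Abcc2 only in melan-a replicate 2 and Gsdmc only in melan-a replicate 3. These 4 genes thus met the filter through a single other library, similar genes without one are missing, and their order is in part set by the filter. The last 2 of the 10 largest were expressed in melan-a at a lower level. Both had no more than 3 reads in any 4C or 4C11- library, so the filter admitted them only through melan-a and 4C11+. Their order against 4C and 4C11- is thus set by it. Bfsp2, which encodes a beaded filament protein first known from the lens, stood at 5.79 and 2.95 in melan-a and 7.55, 6.94 and 7.34 in 4C11+, and had no more than 3 reads in any 4C or 4C11- library, and its call against every line was lost without melan-a replicate 3 (0.181), 4C replicate 2 (0.0547), 4C replicate 3 (0.0527), 4C11- replicate 2 (0.054), 4C11+ replicate 1 (0.148), 4C11+ replicate 2 (0.0915) and 4C11+ replicate 3 (0.0794). Tspan10, a tetraspanin, stood at 2.17 and 2.59 in melan-a and 6.65, 6.63 and 6.72 in 4C11+, and had no more than 3 reads in any 4C or 4C11- library, at least 6.82 above the mean (adjusted p = 9.52e-08). Prkcq stood at 4.61 and 6.84 in melan-a and 7.77, 7.54 and 7.46 in 4C11+. Prkcq too had no more than 3 reads in any 4C or 4C11- library, so the filter sets its order against those lines. It was at least 6.63 above the mean (adjusted p = 5.46e-07) and 1.87 above melan-a, and did not pass against every line.

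**Figure D2:**
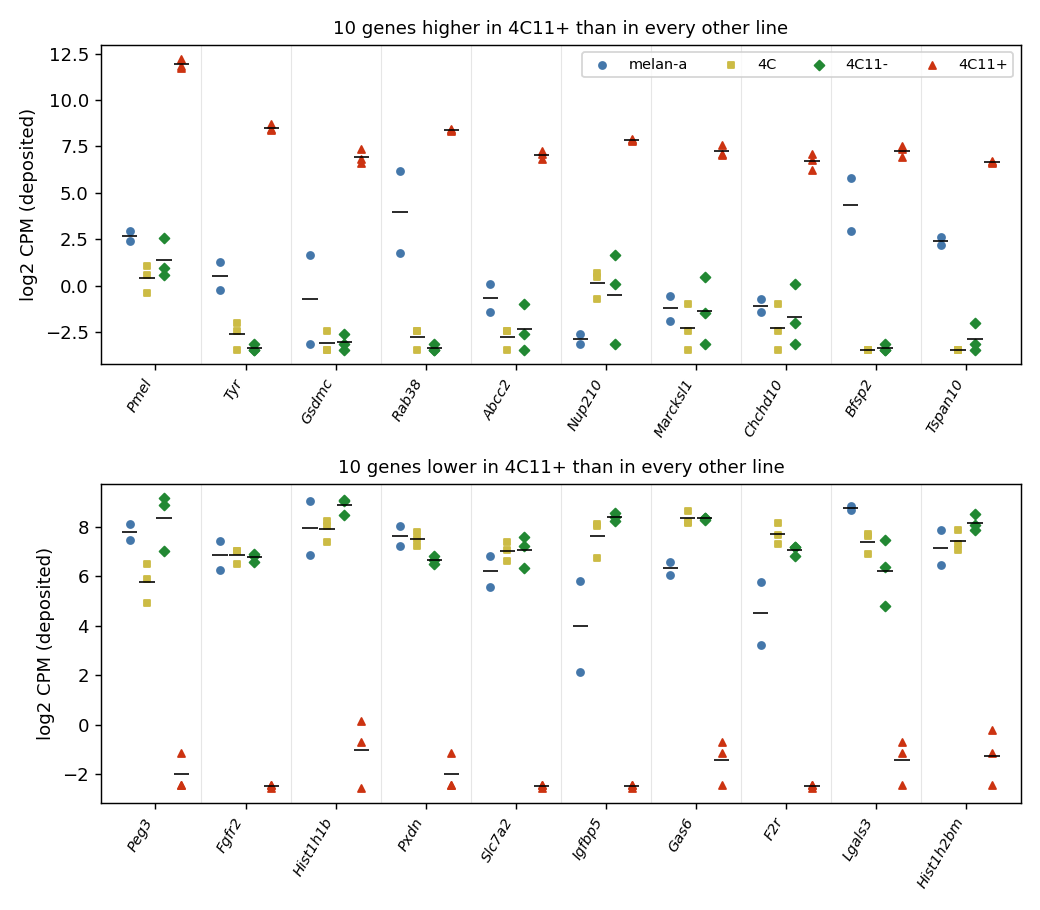
Log2 CPM in every library of the 10 genes with the largest positive (top) and the 10 with the largest negative difference (bottom) among genes that passed against every other line and whose 4C11+ libraries do not overlap any other, with a bar for the line mean. The lower genes are near the bottom of the scale in all 3 4C11+ libraries and well expressed in nearly all others.

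The genes with the largest negative differences were expressed in all other lines and silent in 4C11+. Peg3 (ENSMUSG00000002265, chr7:6703892-6730431, GRCm38), an imprinted zinc finger gene expressed from the paternal copy, stood at 8.14 and 7.49 in melan-a, 6.49, 4.92 and 5.90 in 4C, and 7.05, 8.87 and 9.17 in 4C11-, and had no more than 3 reads in any 4C11+ library. In 4C11+ it lay at least 7.79 below melan-a, at least 5.74 below 4C and at least 8.34 below 4C11-. Fgfr2, a receptor for fibroblast growth factors, stood at 7.45 and 6.28 in melan-a, 6.52, 7.02 and 7.04 in 4C, and 6.83, 6.89 and 6.59 in 4C11-, and had no more than 3 reads in any 4C11+ library. The 8 other libraries lay between 6.28 and 7.45, and 4C11+ was at least 6.81 lower (adjusted p = 2.18e-09). Pxdn, which encodes the peroxidase that crosslinks collagen IV, stood at 8.04 and 7.24 in melan-a, 7.22, 7.51 and 7.79 in 4C, and 6.83, 6.49 and 6.68 in 4C11-, and had no more than 3 reads in any 4C11+ library. Its difference was at least 7.25 (adjusted p = 4.18e-09).

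Slc7a2, a transporter of arginine and other cationic amino acids, ranged from 5.58 to 7.58 in the 8 other libraries and was at least 6.74 lower in 4C11+ (adjusted p = 7.44e-09). Gas6, the ligand of the receptors Axl, Mertk and Tyro3, ranged from 6.06 to 8.65 and was at least 7.65 lower (adjusted p = 6.98e-09). Lgals3, which encodes the carbohydrate-binding protein galectin-3, ranged from 4.80 to 8.85 and was at least 7.45 lower (adjusted p = 2.72e-07). F2r, the thrombin receptor gene, and Igfbp5, which encodes a binding protein of insulin-like growth factors, were at least 6.41 and 6.65 lower, each with melan-a well under 4C and 4C11-. All of these genes passed against every line and had no 4C11+ library above 3 reads.

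A block of histone genes was at or near the floor in 4C11+, while most genes further along the same cluster were not. Of 56 listed canonical histone genes all were measured, 20 were lower in 4C11+ (35.7%), 16 of them against every line, and 3 were higher (5.36%, with 10 without melan-a replicate 3). The median difference was -0.19. The run of neighbouring Hist1 genes at chr13:21715763-21789213 (GRCm38) held 12 genes in a row whose 4C11+ libraries were all below all other libraries, and all 12 passed against every line. Hist1h1b, which encodes a linker histone of the H1 family, stood at 6.86 and 9.04 in melan-a, 8.04, 8.26 and 7.41 in 4C, and 8.47, 9.09 and 9.05 in 4C11-, and had no more than 3 reads in any 4C11+ library. Hist1h4j, an H4 gene of the run, stood at 5.66 and 7.56 in melan-a, 7.02, 7.42 and 6.70 in 4C, and 7.90, 8.27 and 7.59 in 4C11-, and had no more than 3 reads in any 4C11+ library. The 8 other libraries all expressed both genes strongly, and 10 of the 12 genes had no 4C11+ library above 3 reads.

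The 2 exceptions, Hist1h4k and Hist1h3i, were at -0.70, 0.15 and 0.69 and at 0.15, -0.24 and 0.88 in 4C11+, with differences of 7.70 ± 0.39 and 6.23 ± 0.34 below the mean. Counting reads to single histone genes is limited by their shared sequence. Of all 50-base windows of Hist1h1b, 100% occurred in no other gene, against 75.4% for Hist1h4j, 56.2% for Hist1h2bm, 55.9% for Hist1h2bp, 47.7% for Hist1h2ak, 28.5% for Hist1h4k and between 6.08% and 17.2% for the other 6. Hist1h4n, another H4 gene close by, had no more than 3 reads in 4C11+ either (at least 6.43 lower, adjusted p = 1.79e-07). Further along, Hist1h2bf was at 1.33, 1.68 and 0.88 in 4C11+, 4.63 ± 0.43 lower and past the test against every line (adjusted p = 0.00286), and Hist1h3d and Hist1h3b were lower by 5.98 ± 0.72 and 6.15 ± 0.39, at 1.18, 1.18 and -2.58 and at 0.44, 0.15 and 1.44 in 4C11+.

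Other histone genes went up. Hist1h1t, which encodes the linker histone of the testis, stood at 1.47, 1.71 and 0.91 in 4C, 0.26, 0.24 and 1.45 in 4C11-, and 4.34, 3.84 and 5.42 in 4C11+, and had no more than 3 reads in any melan-a library, at least 3.99 higher in 4C11+ (adjusted p = 3.44e-05). Hist2h2be, an H2B gene on chromosome 3 with a polyadenylated transcript, stood at 1.97 and 2.45 in melan-a, 1.47, 1.15 and 2.31 in 4C, 1.26, 1.36 and 0.70 in 4C11-, and 4.16, 4.24 and 4.56 in 4C11+. It was 2.67 ± 0.33 higher (adjusted p = 9.49e-05), above every other library in all 3 4C11+ libraries, and its call against every line was lost without melan-a replicate 2 (0.126), 4C11+ replicate 1 (0.0613) and 4C11+ replicate 2 (0.0599).

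**Figure D3:**
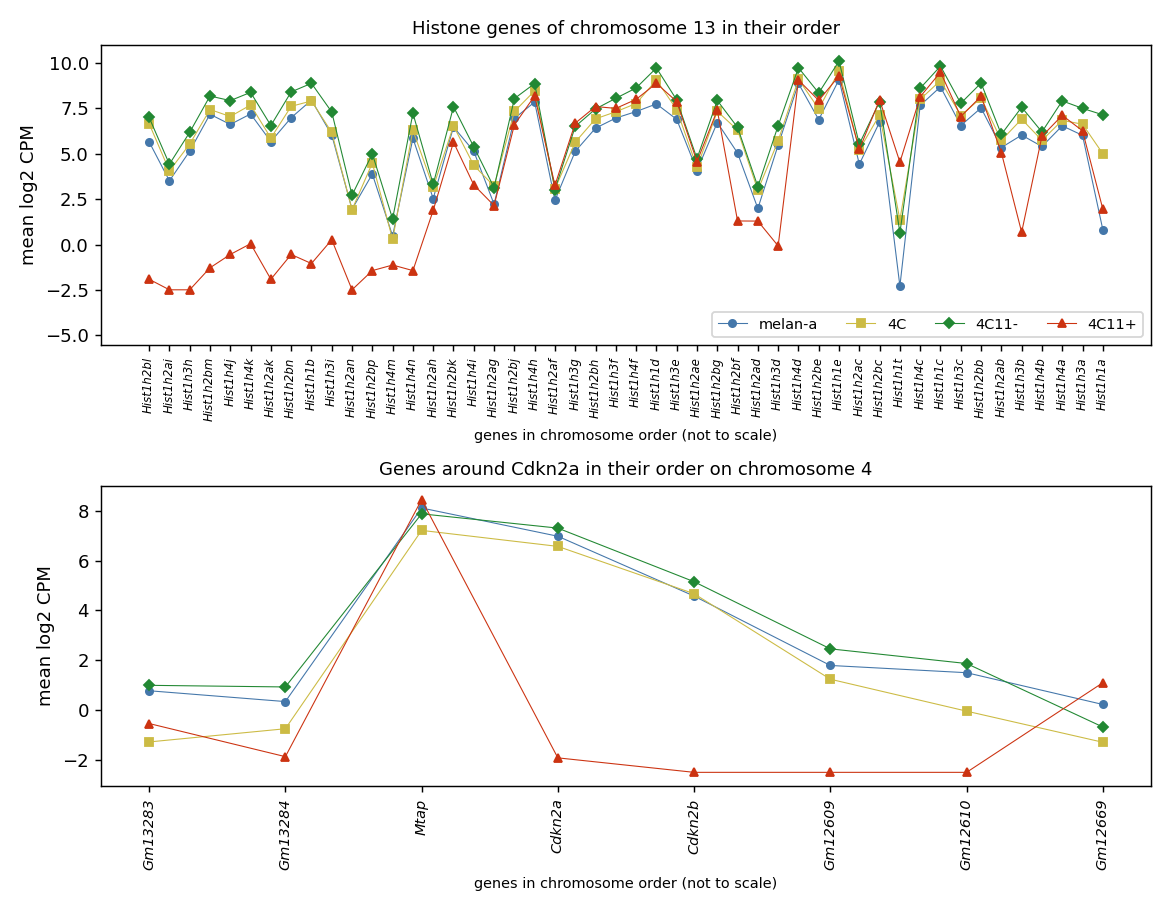
Mean log2 CPM per line of the Hist1 genes of chromosome 13 (top) and of the genes around Cdkn2a on chromosome 4 (bottom), in chromosome order and not to scale. In 4C11+ the first 12 histone genes and the 4 genes from Cdkn2a to Gm12610 fall to the bottom of the scale while Mtap, beside Cdkn2a, does not.

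The Cdkn2a locus showed the same kind of gap. Cdkn2a (ENSMUSG00000044303, chr4:89274471-89294653, GRCm38), which encodes the cell cycle inhibitor p16 and the p53 activator p19Arf, stood at 7.36 and 6.59 in melan-a, 6.57, 6.32 and 6.81 in 4C, and 7.90, 7.13 and 6.87 in 4C11-, and had no more than 3 reads in any 4C11+ library. All 8 other libraries were above 6 and no 4C11+ library was above 3 reads, a difference of at least 6.92 (adjusted p = 4.68e-08 against the mean and 1.86e-06 against every line). Cdkn2b, which encodes the related inhibitor p15, stood at 5.26 and 3.89 in melan-a, 4.61, 4.54 and 4.86 in 4C, and 5.64, 5.04 and 4.78 in 4C11-, and had no more than 3 reads in any 4C11+ library, at least 4.78 lower (adjusted p = 4.68e-08). The next 2 genes, the long noncoding Gm12609 and Gm12610, had no more than 3 reads in 4C11+ as well, with values under those of every other library. Gm12609 passed against every line (adjusted p = 0.000415) and Gm12610, which was near 3 reads in 4C too, did not (adjusted p = 0.0533). Together they form a run of 4 genes at chr4:89274471-89463487. Mtap, the gene on the other side of Cdkn2a, whose product salvages methionine, stood at 8.0 and 8.22 in melan-a, 7.47, 7.19 and 6.97 in 4C, 7.86, 7.71 and 8.04 in 4C11-, and 8.40, 8.42 and 8.49 in 4C11+. It was thus expressed in 4C11+ at 0.71 ± 0.16 above the mean (adjusted p = 0.00496), a call lost with the 4C line left out (adjusted p = 0.0688). Copy number was not measured, and whether these genes are deleted or silent was not tested. Gm12609, Gm12610 and Mtap, like the p53 targets Mdm2, Zmat3, Fas, Gadd45a and Sesn1, the genes Timp3, Top2a and Cenpe, the gene Trp53 and the histone genes other than the largest, were named after their values were seen.

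Several genes induced by p53 were high in 4C11+, but not all of those listed. Of 34 listed genes of the G1 checkpoint and p53 targets 31 were measured, 15 were higher (48.4%, with 6 against every line) and 5 lower (16.1%), with a median difference of 0.27. The 5 became 3 without melan-a replicate 3 or 4C11+ replicate 1 and 2 without 4C11+ replicate 2. Cdkn1a, which encodes the inhibitor p21, stood at 4.45 and 2.09 in melan-a, 3.31, 2.85 and 2.92 in 4C, 4.29, 3.0 and 2.58 in 4C11-, and 7.48, 7.46 and 7.46 in 4C11+. The 3 4C11+ values were nearly equal and above every other library, with a difference of 4.27 ± 0.46 (adjusted p = 3.66e-05), made of 4.20 above melan-a, 4.44 above 4C and 4.18 above 4C11-. Ccng1, the cyclin G1 gene, stood at 4.94 and 5.77 in melan-a, 5.92, 5.90 and 5.88 in 4C, 3.68, 5.60 and 6.07 in 4C11-, and 9.24, 9.26 and 9.40 in 4C11+, 3.84 ± 0.40 higher (adjusted p = 2.88e-05). Some other listed targets did not pass as higher. Fas, a death receptor gene, was 3.79 below 4C and 3.05 below 4C11- and had no more than 3 reads in any melan-a library. Its call as lower than the mean (adjusted p = 0.0426) was lost without melan-a replicate 3 (0.0657), 4C replicate 1 (0.0505), 4C replicate 2 (0.0771), 4C replicate 3 (0.0657), 4C11- replicate 2 (0.0725), 4C11- replicate 3 (0.0502), 4C11+ replicate 2 (0.258) and 4C11+ replicate 3 (0.108). It was also lost with the 4C line (0.58) or the 4C11- line (0.298) left out. Gadd45a, a stress sensor gene, and Sesn1, which encodes sestrin 1, did not pass, with differences of -0.67 and -0.22 (adjusted p = 0.271 and 0.436).

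Mdm2, whose product degrades p53, was at 8.06, 8.14 and 7.87 in 4C11+ against 5.25 to 5.91 elsewhere, 2.41 ± 0.18 higher (adjusted p = 2.6e-06). Zmat3, a zinc finger RNA-binding protein gene, was 2.39 ± 0.20 higher (adjusted p = 4.48e-06). Trp53 itself stood at 5.85 and 5.79 in melan-a, 6.73, 6.71 and 6.73 in 4C, 6.97, 6.65 and 6.82 in 4C11-, and 4.65, 4.75 and 6.26 in 4C11+. It was 1.23 ± 0.30 lower (adjusted p = 0.00802), with 4C11+ replicate 3 within the range of melan-a and the others, and the call was lost without 4C11+ replicate 1 (0.0647) and 4C11+ replicate 2 (0.0615).

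Few genes of DNA replication and mitosis passed. All 38 listed were measured, 1 was higher (2.63%) and 2 were lower (5.26%), with a median of -0.10. The number lower rose to 4 without melan-a replicate 2 or without 4C11+ replicate 3, and the number higher to 3 without melan-a replicate 3 and 2 without 4C replicate 1. With array quality weights 3 and 14 (7.89% and 36.8%) were higher and lower, against 33.1% and 28% of all genes. Top2a, the gene of topoisomerase II alpha, and Cenpe, a kinetochore motor gene, had differences of -1.40 and -1.08 and did not pass (adjusted p = 0.0556 and 0.37). Top2a passed without 4C11- replicate 1 (-1.66, adjusted p = 0.00433) and without 4C11+ replicate 3 (-1.89, adjusted p = 0.03). Bub1b, a kinase of the spindle checkpoint, and Cenpa, the centromeric histone, were lower by 1.04 ± 0.23 and 0.84 ± 0.19, and Ccnb2, a mitotic cyclin, was higher by 0.97 ± 0.19. In each of these 3 genes all 4C11+ libraries lay on one side of all others.

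Receptors of growth factors were lower in 4C11+ more often than genes at large. Of 35 listed receptor tyrosine kinases 24 were measured, 12 were lower (50% against 15.8%, with 6 against every line) and 4 higher (16.7% against 18.3%), with a median of -1.37 (-0.90 with absent genes at the floor). The median was -0.33 from melan-a, -1.33 from 4C and -1.52 from 4C11-. Besides Fgfr2, its relative Fgfr1 stood at 8.10 and 6.02 in melan-a, 7.07, 7.0 and 7.38 in 4C, 7.81, 7.41 and 7.18 in 4C11-, and 3.37, 2.52 and 3.27 in 4C11+, 4.17 ± 0.37 lower (adjusted p = 7.76e-06). Pdgfra, a receptor for platelet-derived growth factor, stood at 6.38 and 3.91 in melan-a, 7.39, 7.32 and 7.89 in 4C, 7.93, 8.03 and 8.22 in 4C11-, and 2.24, 2.09 and 2.71 in 4C11+, 4.56 ± 0.40 lower (adjusted p = 7.75e-06). Ror1, a Wnt5a receptor, ranged from 3.06 to 4.12 in the 8 other libraries and was at least 3.56 lower (adjusted p = 3.98e-08). Each of these passed against every line with no 4C11+ library inside the range of the others.

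Genes driven by ERK signalling moved less as a group. Of 18 measured, 5 were lower (27.8%, with 2 against every line) and 1 was higher (5.56%, with 4 without 4C replicate 1 and 0 without 4C11+ replicate 3), with a median of 0.11. Dusp5, a nuclear ERK phosphatase, stood at 4.10 and 2.37 in melan-a, 5.42, 5.04 and 3.80 in 4C, and 5.62, 5.34 and 5.15 in 4C11-, and had no more than 3 reads in any 4C11+ library, at least 4.43 lower (adjusted p = 3.41e-06). Spry1, a feedback inhibitor of receptor signalling, was at 2.54, 2.39 and 2.54 in 4C11+ and at 4.01 or more elsewhere, 2.02 ± 0.30 lower (adjusted p = 0.000363). Its call against every line was lost without melan-a replicate 2 (0.0612) and 4C11+ replicate 2 (0.052). Fosl1, an AP-1 component, was 2.85 ± 0.61 lower and Egr1, an immediate early transcription factor, at least 2.75 lower (adjusted p = 0.00384 and 0.0037), both below every other library in all 3.

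Mesenchymal factors were low in 4C11+, and part of that order was shared with melan-a. Of 16 listed factors of the epithelial-mesenchymal transition 13 were measured, 6 were lower (46.2%) and 2 higher (15.4%), with a median of -0.70. Zeb1, a repressor of epithelial genes, stood at 0.87 and 2.09 in melan-a, 4.59, 5.37 and 5.83 in 4C, and 4.04, 5.26 and 5.23 in 4C11-, and had no more than 3 reads in any 4C11+ library. It was lower than in any other library, at least 3.84 below the mean of the other lines and at least 1.45 below melan-a (adjusted p = 6.03e-07 against the mean and 0.00117 against every line). Prrx2 and Twist2, both mesenchymal transcription factors, were at 4.22 or more in all 4C and 4C11- libraries and at no more than 3 reads in melan-a and 4C11+ alike.

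Cadherins and junction genes moved both ways: of 29 listed 16 were measured, 6 were higher (37.5%) and 4 lower (25%), with a median of -0.24. Cdh2, the gene of N-cadherin, stood at 7.41 and 8.28 in melan-a and 6.71, 6.72 and 6.84 in 4C11+, and had no more than 3 reads in any 4C or 4C11- library. Melan-a and 4C11+ both expressed it, 4C11+ 1.09 below melan-a, and the difference from the mean was at least 5.09 (adjusted p = 9.27e-08). Cdh19, a cadherin of neural crest and glia, had the same order, with 4C11+ 0.18 above melan-a. Both had no more than 3 reads in any 4C or 4C11- library, so the filter sets their order against those lines. Cdh13, the gene of the membrane-anchored T-cadherin, stood at -0.72 and 1.04 in melan-a and 3.82, 3.20 and 3.13 in 4C11+, and had no more than 3 reads in any 4C or 4C11- library. The filter thus sets its order against those lines too. Cdh13 was at least 4.27 higher (adjusted p = 2.51e-05), and its call against every line was lost without melan-a replicate 2 (0.249), 4C11+ replicate 1 (0.139), 4C11+ replicate 2 (0.0922) and 4C11+ replicate 3 (0.0546). Jup, which encodes the junction protein plakoglobin, stood at 7.62 and 4.92 in melan-a, 7.68, 7.57 and 7.94 in 4C, 7.86, 7.63 and 7.08 in 4C11-, and 2.09, 2.67 and 2.32 in 4C11+, 4.81 ± 0.44 lower and below every other library in all 3 (adjusted p = 9.3e-06).

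Extracellular matrix genes were lower more often than genes at large. Of 62 listed 59 were measured, 31 were lower (52.5% against 15.8%, with 8 against every line) and 14 higher (23.7%), with a median of -1.61 (-1.21 with absent genes at the floor). The median was -0.84 from melan-a, -2.71 from 4C and -2.70 from 4C11-, and -1.70 and -1.80 from the mean without melan-a replicate 2 and replicate 3. The loss was thus not one-way, and the largest of the higher genes were Col5a3, Fbln5 and Nid1. Fbn2, which encodes the microfibril protein fibrillin 2, stood at 3.97 and 3.38 in melan-a, 7.38, 7.15 and 6.79 in 4C, and 7.23, 7.90 and 8.01 in 4C11-, and had no more than 3 reads in any 4C11+ library. It was at least 6.14 lower, past the test against every line (adjusted p = 2.35e-09 and 1e-06). Col6a1, a chain of collagen VI, stood at 7.90 and 0.22 in melan-a, 8.91, 9.64 and 9.80 in 4C, 9.73, 9.68 and 8.95 in 4C11-, and 0.15, 0.44 and -0.24 in 4C11+. Here melan-a replicate 2 was with 4C and 4C11- and melan-a replicate 3 with 4C11+, and the difference of 7.53 ± 1.12 was 6.25 without melan-a replicate 2. The same split of melan-a held for Col6a2 (5.45 and -1.42), for Tnc, for Ly6e and Ly6c1, which encode small membrane-anchored proteins of the Ly6 family, and for Igfbp2, a binding protein of insulin-like growth factors. These passed against the mean but not every line, with differences of at least 6.21, 6.83, 5.62, 5.45 and 5.88.

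Integrins, which anchor cells to that matrix, were called in shares near those of all genes. All 20 were measured, 5 were higher (25% against 18.3%, and 3 genes without 4C11+ replicate 2) and 4 lower (20% against 15.8%), with a median of 0.08. Itga3, a laminin receptor subunit, stood at 6.90 and 6.73 in melan-a, 8.76, 9.18 and 9.36 in 4C, 8.82, 8.20 and 8.34 in 4C11-, and 1.70, 1.68 and 1.04 in 4C11+. It was 6.65 ± 0.22 lower (adjusted p = 4.18e-09), far below every other library in all 3. Itgb4, the subunit of hemidesmosomes, was at 2.86, 2.57 and 2.85 in 4C11+ and at 0.48 or less elsewhere, at least 4.04 higher (adjusted p = 0.00189). Itga11, a collagen receptor subunit, was 3.84 ± 0.71 lower than the mean but overlapped with melan-a. Itga8, a subunit of receptors for nephronectin and fibronectin, was higher than the mean (at least 1.71, adjusted p = 0.0132) and 3.60 below melan-a, and its call was lost without 4C11+ replicate 2 (0.0783).

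Of 29 listed metalloproteases and plasminogen genes 28 were measured, 15 were lower (53.6%, with 3 against every line) and 5 higher (17.9%, with 1 against every line, and 2 without 4C11+ replicate 3), with a median of -1.13. Mmp2, the gene of gelatinase A, stood at 8.23 and 6.90 in melan-a, 7.17, 7.20 and 8.47 in 4C, 7.14, 6.88 and 6.41 in 4C11-, and 3.27, 2.81 and 2.92 in 4C11+. It was 4.33 ± 0.34 lower, with 4C11+ below every other library (adjusted p = 3.31e-06). Plat, the gene of tissue plasminogen activator, stood at 7.90 and 5.21 in melan-a, 5.40, 5.58 and 6.19 in 4C, 7.18, 6.34 and 5.87 in 4C11-, and 1.33, 1.78 and 2.98 in 4C11+, 4.22 ± 0.53 lower (adjusted p = 0.000107). Adamts6, a secreted metalloprotease gene, was 3.54 ± 0.65 lower (adjusted p = 0.00158) and below every other library. Timp3, which encodes an inhibitor of metalloproteases, stood at 0.40 and -0.70 in melan-a, 0.87, 2.55 and 1.68 in 4C, 1.57, 1.44 and 2.23 in 4C11-, and 3.66, 3.24 and 5.02 in 4C11+, 2.87 ± 0.48 higher and above every other library (adjusted p = 0.000877). Its call against every line (adjusted p = 0.0497) was lost without melan-a replicate 2 (0.0666), 4C replicate 1 (0.137), 4C replicate 2 (0.0586), 4C replicate 3 (0.117), 4C11- replicate 1 (0.0865), 4C11- replicate 2 (0.155), 4C11- replicate 3 (0.0666), 4C11+ replicate 1 (0.128), 4C11+ replicate 2 (0.0643) and 4C11+ replicate 3 (0.138).

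Axon guidance genes, which also steer melanocytes out of the neural crest, were all 43 measured, 15 lower (34.9%, with 4 against every line) and 9 higher (20.9%, with 2 against every line), with a median of -0.15. Sema4f, a membrane semaphorin, stood at 1.05 and -0.54 in melan-a, 0.06, -2.58 and -1.50 in 4C11-, and 5.21, 5.02 and 4.15 in 4C11+, and had no more than 3 reads in any 4C library. It was at least 5.57 higher and above every other library (adjusted p = 2.01e-05). The largest difference of the list was that of Unc5c, at 2.85 and 7.54 in melan-a and 7.16, 6.73 and 8.53 in 4C11+. Unc5c had no more than 3 reads in any 4C or 4C11- library, so the filter sets its order against those lines. It was at least 6.68 above the mean (adjusted p = 2e-05), overlapped with melan-a and did not pass against every line. Epha8, an ephrin receptor, and Slit3, a secreted ligand of Robo receptors, were expressed in 4C and 4C11- and at no more than 3 reads in melan-a and 4C11+, 4.16 and 3.18 below the mean when the lines without expression are put at 3 reads.

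No gene on the lists of interferon-stimulated genes and MHC class I presentation passed as higher in 4C11+ in the main fit. Of 50 listed interferon-stimulated genes 46 were measured, 18 were lower (39.1%, with 2 against every line) and 0 higher in the limma test (0 higher and 26 lower at an unadjusted p under 0.05). Without melan-a replicate 2, 2 were higher, and 1 was with the whole melan-a line left out. With array quality weights 3 and 29 (6.52% and 63%) were higher and lower. Their median was -1.08. Of 19 listed genes of MHC class I presentation 15 were measured, 10 were lower (66.7%, with 2 against every line) and 0 higher by limma (11 and 0 at an unadjusted p under 0.05), with a median of -1.63. Their median was only -0.33 from melan-a, against -2.36 from 4C and -2.05 from 4C11-. With the 4C line left out 5 were lower, and with the 4C11- line left out 1 was higher. Nlrc5, the transactivator of MHC class I genes, stood at 5.81 and 2.02 in melan-a, 4.16, 5.14 and 5.31 in 4C, and 6.55, 5.61 and 4.98 in 4C11-, and had no more than 3 reads in any 4C11+ library. It was at least 4.81 lower and below every other library, and its call against every line was lost without melan-a replicate 2 (0.114) and 4C11+ replicate 2 (0.0566). Oasl2 and Oasl1, which encode relatives of the antiviral oligoadenylate synthases, were at least 2.92 and 3.09 lower (adjusted p = 7.16e-05 and 0.000796) and below every other library in all 3.

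Some other members of these groups separated 4C11+ from 4C and 4C11- rather than from melan-a. Ifitm1, which encodes a membrane protein that blocks virus entry, was at 5.19 or more in 4C and 4C11- and at no more than 3 reads in melan-a and 4C11+. Tap2, a subunit of the peptide transporter, stood at 1.63 and 0.06 in melan-a, 4.58, 5.03 and 5.23 in 4C, 5.64, 4.55 and 4.33 in 4C11-, and 0.44, 0.44 and -1.16 in 4C11+, 0.94 below melan-a and 3.63 ± 0.47 below the mean (adjusted p = 0.000129). Ifih1, a sensor of viral double-stranded RNA, was 3.65 ± 0.76 lower (adjusted p = 0.00337), with melan-a split between 5.26 and 0.60. H2-M3, a nonclassical class I gene, overlapped with melan-a and 4C11- and was at least 0.90 lower than the mean (adjusted p = 0.0217), a call lost without 4C11+ replicate 1 (0.101) and 4C11+ replicate 2 (0.1) and with values under 3 reads raised to it (adjusted p = 0.245).

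Genes of energy metabolism were more often higher in 4C11+ than genes at large, by a margin that varied with the 4C11+ libraries. All 73 listed genes of oxidative phosphorylation were measured, 29 were higher (39.7%) and 0 lower by limma (39 and 1 at an unadjusted p under 0.05), with a median of 0.45, and the 29 became 15 without 4C11+ replicate 1 or replicate 2 (20.5%, when 10.3% and 10.5% of all genes were higher). Ndufs8, a subunit of complex I, was at 6.61, 6.86 and 6.07 in 4C11+ against 4.31 to 5.64 elsewhere, 1.51 ± 0.26 higher (adjusted p = 0.001). Ndufb11, another complex I subunit, was 1.18 ± 0.22 higher, Atp5mpl, a subunit of ATP synthase, 1.28 ± 0.16 higher and Cox7b, a subunit of cytochrome c oxidase, 1.09 ± 0.17 higher, each above every other library in all 3. Mitochondrial ribosomal proteins had the same direction: of 77 measured, 27 were higher (35.1%) and 2 lower (2.6%, with 1 without melan-a replicate 3, 4C replicate 1, 4C11- replicate 2, 4C11+ replicate 1 or 4C11+ replicate 2, and 5 without 4C11- replicate 3), with a median of 0.44. The 27 became 10 and 9 without 4C11+ replicates 1 and 2, and those shares of 13% and 11.7% lay near the shares of all genes in the same settings. Mrps33, Mrpl55 and Mrpl23, which encode proteins of the small and large subunit, were higher by 1.83 ± 0.24, 1.79 ± 0.30 and 1.78 ± 0.27, and Mrps6 was lower by 1.62 ± 0.26.

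Glycolysis genes were higher in 11 of 22 (50%) and lower in 3 (13.6%), with a median of 0.80. Against every line 1 was higher and 3 were lower. The median was 0.17 from melan-a, 0.99 from 4C and 0.79 from 4C11-, so the list stood apart mainly from 4C and 4C11-. Slc16a3, which exports lactate, stood at -0.25 and 1.04 in melan-a, 0.70, 0.60 and 1.05 in 4C, 0.85, -2.01 and 0.02 in 4C11-, and 2.59, 3.24 and 4.15 in 4C11+, 3.06 ± 0.59 higher (adjusted p = 0.00219). Eno2, an enolase isoform typical of neurons, was at 1.70, 1.68 and 2.37 in 4C11+ and at 0.26 or less elsewhere, at least 3.17 higher (adjusted p = 0.00191). It had no more than 3 reads in any melan-a or 4C library, so the filter sets its order against those lines. Pdk1, a kinase that restrains entry of pyruvate into the mitochondrion, and Pfkm, the muscle isoform of phosphofructokinase, were lower by 1.41 ± 0.19 and 1.39 ± 0.22 (adjusted p = 0.000155 and 0.00065) and below every other library in all 3.

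Cytosolic ribosomal proteins were closer to the genes at large. All 84 were measured, 21 were higher (25%, with 13 and 10 without 4C11+ replicates 1 and 2) and 7 lower (8.33%, with 4 without any of the 3 4C11+ libraries in turn), with a median of 0.18. Rps25, a protein of the small subunit, stood at 11.11 and 11.27 in melan-a, 11.15, 11.19 and 11.15 in 4C, 11.72, 11.64 and 11.72 in 4C11-, and 9.58, 9.53 and 9.39 in 4C11+. It was 1.85 ± 0.12 lower in 4C11+ (adjusted p = 8.36e-07) and passed against every line, with all 3 libraries under all others. Rps3a2, a gene close in sequence to Rps3a1, was 2.98 ± 0.27 lower (adjusted p = 8.16e-06), and Rps27l, a ribosomal protein gene induced by p53, 1.46 ± 0.19 higher (adjusted p = 0.000164).

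Proteasome subunits were higher in 10 of 34 (29.4%) and lower in 0 by limma (13 and 1 at an unadjusted p under 0.05), with a median of 0.24, and the 10 became 5 and 4 without 4C11+ replicates 1 and 2. Psmc1, an ATPase of its base, was 1.17 ± 0.16 higher (adjusted p = 0.000169), and Psmc4, Psma3 and Psmc5 were higher by 1.06 ± 0.21, 0.80 ± 0.19 and 0.72 ± 0.17, each above every other library. Lysosomal genes were measured for 62 of 65 listed, 18 higher (29%) and 4 lower (6.45%, with 8 without melan-a replicate 3, 1 and 2 without 4C11+ replicates 1 and 2), with a median of 0.29. Atp6v0e2, a subunit of the proton pump, stood at 6.64 and 6.04 in melan-a, 2.36, 2.07 and 4.35 in 4C, 4.19, 3.21 and 1.45 in 4C11-, and 7.57, 7.76 and 6.95 in 4C11+, 3.36 ± 0.57 higher and above melan-a by 1.09. Naglu, which degrades heparan sulfate, was 2.31 ± 0.37 higher (adjusted p = 0.000641), and Ctsl, the cathepsin L gene, 1.89 ± 0.38 lower (adjusted p = 0.00291), both outside the range of the others.

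**Figure D4:**
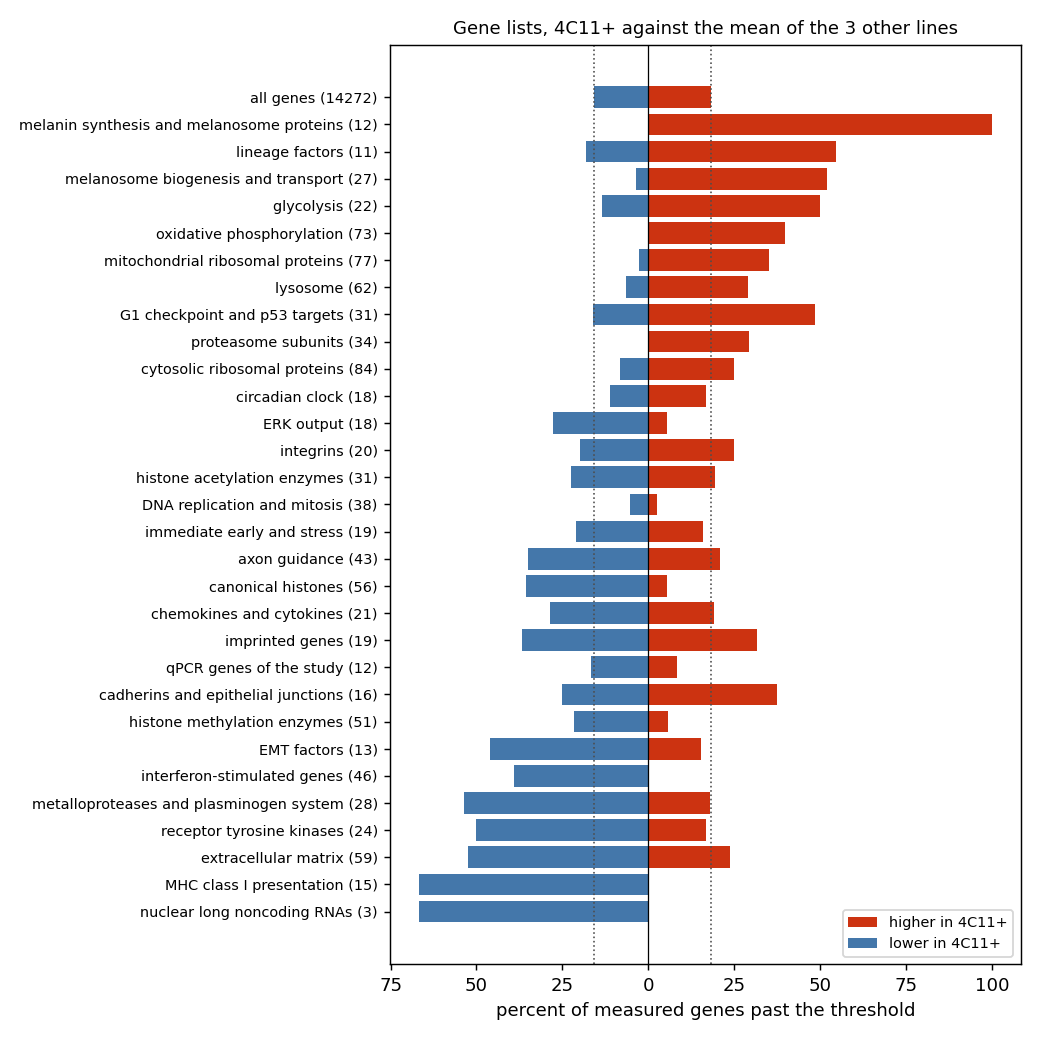
Percent of the measured genes of each list that passed against the mean of the 3 other lines, higher in 4C11+ to the right and lower to the left, with the number measured in parentheses, lists ordered by median difference and dotted lines at the shares over all genes (18.3% and 15.8%). Pigment genes are all to the right, and matrix, receptor, interferon and MHC class I genes lie to the left beyond the dotted line.

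Array quality weights and the omission of a line moved further list counts by more than 1.5 times. With array quality weights, when 33.1% and 28% of all genes were called, the genes higher and lower numbered 51 and 0 (69.9% and 0%) for oxidative phosphorylation, 46 and 9 (59.7% and 11.7%) for mitochondrial and 38 and 12 (45.2% and 14.3%) for cytosolic ribosomal proteins, 18 and 3 (52.9% and 8.82%) for the proteasome and 31 and 9 (50% and 14.5%) for lysosomes. They numbered 6 and 5 (33.3% and 27.8%) for ERK output, 15 and 8 (48.4% and 25.8%) for the G1 checkpoint and p53 list, 7 and 8 (35% and 40%) for integrins, 6 and 7 (37.5% and 43.8%) for cadherins, 5 and 27 (8.93% and 48.2%) for histones and 21 and 2 (77.8% and 7.41%) for melanosome transport. A filter on genes of a mean log2 value under 1 took members out before the test, so its list counts are not compared. Without a mean-variance trend, 4 cytosolic ribosomal proteins were lower and 6 proteasome subunits higher. With melan-a left out (all genes 21.1% and 18.5%), 5 ERK genes were higher and 8 G1 or p53 genes, 7 integrins, 3 proteasome subunits and 1 oxidative phosphorylation gene lower, and 6 proteasome subunits were higher. With 4C left out (all genes 12.9% and 11.8%), 0 ERK genes, 2 acetylation enzymes, 3 integrins and 3 metalloprotease genes were higher, and 3 G1 or p53 genes, 1 lineage factor and 1 mitochondrial ribosomal protein were lower. With 4C11- left out (all genes 16.6% and 14.3%), 3 integrins were higher, and 3 G1 or p53 genes, 1 lineage factor, 1 mitochondrial and 4 cytosolic ribosomal proteins were lower.

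Among enzymes that modify histones, methylation was measured for 51 of 58 listed genes, 3 higher (5.88%) and 11 lower (21.6%, with 6 without 4C11+ replicate 1 or 2), with a median of -0.38. Array quality weights brought these counts to 6 and 27 (11.8% and 52.9%), against 33.1% and 28% of all genes. Kdm5c, an X-linked demethylase of histone H3 lysine 4, stood at 7.96 and 7.36 in melan-a, 7.34, 7.68 and 7.70 in 4C, 7.59, 7.65 and 7.30 in 4C11-, and 5.35, 5.62 and 6.10 in 4C11+. It was 1.89 ± 0.21 lower, nearly equally against each line, and passed against every line (adjusted p = 4.12e-05 and 0.00154). Kmt2a, a methyltransferase of the same residue, was lower by 1.81 against melan-a, 2.11 against 4C and 2.06 against 4C11-. Its call against every line was lost without melan-a replicate 2 (0.266), 4C replicate 2 (0.061), 4C replicate 3 (0.0519), 4C11- replicate 2 (0.0678), 4C11+ replicate 1 (0.148) and 4C11+ replicate 2 (0.15). Mtf2, a partner of the Polycomb complex, was 1.73 ± 0.54 lower (adjusted p = 0.0266), a call lost without 4C11+ replicate 1 (0.128) and 4C11+ replicate 2 (0.141), and Smyd5, a lysine methyltransferase gene, 1.45 ± 0.22 higher (adjusted p = 0.000491) and above every other library.

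All 31 acetylation enzymes were measured, 6 higher (19.4%) and 7 lower (22.6%), near the shares of all genes, with a median of -0.06. The counts were 2 and 4 without 4C11+ replicate 1, the same without 4C11+ replicate 2, and 11 and 11 (35.5% and 35.5%) with array quality weights. Hdac7, a class IIa deacetylase, stood at 7.13 and 5.06 in melan-a, 7.11, 7.14 and 7.01 in 4C, 7.19, 7.13 and 6.92 in 4C11-, and 4.62, 4.36 and 4.10 in 4C11+, 2.39 ± 0.34 lower (adjusted p = 0.000258). Hdac8, a class I deacetylase, was 1.58 ± 0.30 lower and Ncoa1, a nuclear receptor coactivator, 1.41 ± 0.28 higher (adjusted p = 0.00184 and 0.00271), and for these 3 genes no 4C11+ library lay within the range of the others. Hdac9, another class IIa deacetylase, was higher than the mean by at least 1.95 (adjusted p = 0.00375) and not apart from melan-a.

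A shorter list held 12 of these enzymes, the ones that quantitative PCR had also been used on. Of them 1 was higher (8.33%), 2 were lower (16.7%) and 9 did not pass, with a median of -0.22. Hdac1, a class I deacetylase, stood at 7.74 and 7.40 in melan-a, 7.03, 6.95 and 6.95 in 4C, 8.07, 7.68 and 7.89 in 4C11-, and 6.51, 6.12 and 6.65 in 4C11+. It was 1.05 ± 0.17 lower (adjusted p = 0.000751), with all 3 4C11+ libraries under all others. Hdac3, a partner of corepressor complexes, was 0.54 ± 0.19 lower (adjusted p = 0.0452) and Kat2a, an acetyltransferase, 0.53 ± 0.18 higher (adjusted p = 0.0448), both overlapping other libraries. With array quality weights 2 and 5 (16.7% and 41.7%) of the 12 were higher and lower, and with melan-a left out 0 and 4. No gene of the 12 was higher with the replicate block, with the mean of the 8 other libraries or without a mean-variance trend, where 1 was lower. Hdac3 lost its call without melan-a replicate 2 (0.0847), 4C replicate 1 (0.0628), 4C replicate 2 (0.0704), 4C11- replicate 2 (0.0786), 4C11+ replicate 1 (0.165), 4C11+ replicate 2 (0.106) and 4C11+ replicate 3 (0.0988). Kat2a lost its call without melan-a replicate 2 (0.0798), 4C replicate 2 (0.076), 4C replicate 3 (0.0663), 4C11- replicate 2 (0.0683), 4C11- replicate 3 (0.0656), 4C11+ replicate 1 (0.104), 4C11+ replicate 2 (0.155) and 4C11+ replicate 3 (0.107).

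The other 9 were Hat1 (difference 0.13), Ep300 (-0.24) and Kat5 (0.44), all acetyltransferases, Hdac6 (-0.17) and Hdac11 (0.38), deacetylases, Nsd1 (-0.84) and Setd2 (-0.65), methyltransferases of histone H3 lysine 36, and Kdm2a (-0.21) and Kdm2b (-0.33), demethylases of that residue. Kat5 passed without 4C11+ replicate 3 (0.70, adjusted p = 0.0497). Nsd1 and Setd2 passed without 4C11- replicate 1 (-1.0 and -0.89, adjusted p = 0.00219 and 0.0204). Hdac11 stood at 2.85 and -2.58 in melan-a, 3.75, 3.89 and 4.22 in 4C, 5.0, 4.40 and 4.29 in 4C11-, and 3.69, 3.24 and 2.85 in 4C11+, and with melan-a split in this way its difference was 1.28 (adjusted p = 0.00715) without melan-a replicate 2.

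Chromosomes 12 and 14 stood apart in gene level. On chromosome 12, 208 of 514 genes were higher in 4C11+ and 26 lower (5.06%), where 18.3% and 15.8% of all genes were, with a median difference of 0.75. On chromosome 14, 28 of 467 genes were higher (6%) and 139 lower (29.8%), with a median of -0.46. Against melan-a, 4C and 4C11- the medians were 0.61, 0.80 and 0.81 on chromosome 12, and -0.54, -0.45 and -0.34 on chromosome 14. Chromosomes 9, 6 and 10 had medians of 0.42, 0.41 and 0.38, and every other chromosome with more than 100 genes lay between -0.16 and 0.29. These counts carry no test, and copy number was not measured.

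**Figure D5:**
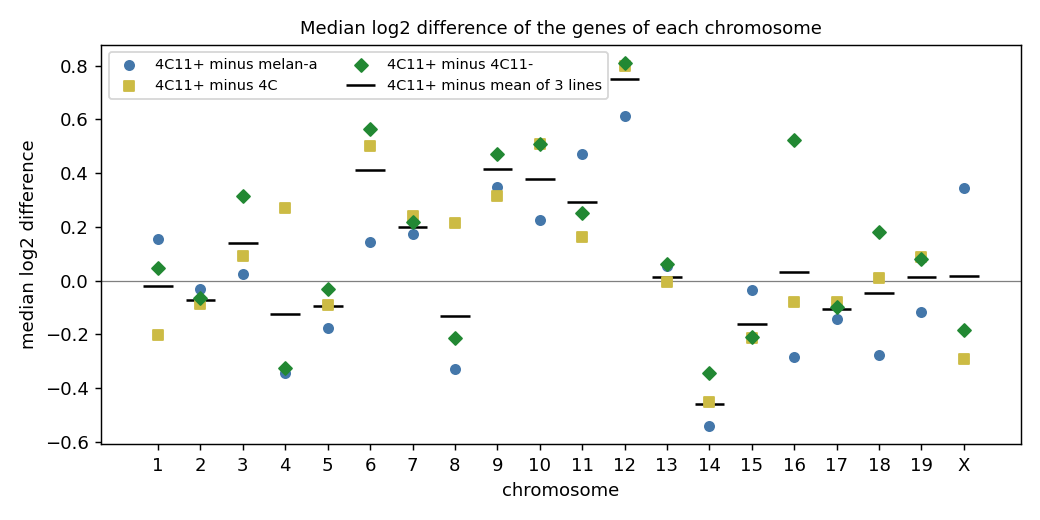
Median log2 difference of the genes of each chromosome with more than 100 genes, 4C11+ minus each other line (points) and minus the mean of the 3 lines (bars). Chromosome 12 is above and chromosome 14 below 0 against all 3 lines, which share the 4C11+ libraries.

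Neighbouring genes that all lay on one side were counted as well. Runs of at least 4 neighbours in which every 4C11+ library was above every other library numbered 21, and runs in which every one was below numbered 15. The longest run above had 7 genes, on chromosome 12 from Evl to Wdr25 (chr12:108554720-109028452, GRCm38), and the longest below was the histone run of 12. Of the runs below, 4 lay on chromosome 9 between 44379490 and 46299110. They hold Rps25 and Kmt2a, described above. Another 2, adjacent to each other on chromosome 14 (chr14:52110704-52257780 and chr14:52261759-52581213), hold the chromatin genes Chd8 and Supt16, Mettl3, which encodes the enzyme of N6-methyladenosine in RNA, and Sall2, a zinc finger factor. The members of these runs were named after their values were seen.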

How the data were processed

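The authors trimmed reads with Trimmomatic, aligned them with STAR to GRCm38 (Ensembl release 90), counted them per gene with Rsubread, dropped genes that did not reach 1 CPM in 4 or more libraries and deposited log2 CPM from voom (limma); versions are not stated. All 11 libraries share the highest value, as after quantile normalization. The deposited log2 values were used unchanged. Positions and gene types came from GENCODE release M21 and promoters from RefSeq (GRCm38.p6). Depth (3500000 to 7420000 reads) was estimated from the steps of the lowest values as if they were plain CPM, and is rough for that reason.

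A limma fit (R 4.3.3, limma 3.58.1) of line means over all 14272 genes gave the contrast of 4C11+ with the mean of the 3 other line means, by empirical Bayes with a mean-variance trend and two-sided p-values adjusted by Benjamini-Hochberg over all genes. For the call against every other line, each gene received the largest of its 3 single-line p-values where all 3 differences had one sign and 1 otherwise, adjusted in the same way. Tables and figures used Python 3.11.15, NumPy 2.4.6, pandas 2.3.3 and Matplotlib 3.10.9.

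Named were the 10 largest differences in each direction among genes past the every-line call without overlap of libraries, the 5 largest in each direction among genes past the comparison with the mean alone, up to 4 members of each gene list with the largest differences past the threshold and any member a sentence needs, and all measured pigment, lineage and quantitative PCR genes. Members and gene lists were chosen with earlier results of these data known. Alternatives were another quantile normalization, alignment of library medians, a filter on low values, values under 3 reads raised to it, no trend, robust empirical Bayes, array quality weights, a replicate block, the mean of the 8 other libraries, and each library or line left out.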

Additional observations from a re-analysis of the deposited data

How the results depend on the processing

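Scaling the libraries again, a filter on low values, another floor, the form of the limma fit and the weights of lines and libraries were varied 1 at a time. The count for the comparison with the 3 line means (4856, of which 2607 up and 2249 down) became 8720 (4724 and 3996) with array quality weights, and over the settings that left out 1 library it ran from 3001 to 5718 (higher 1471 to 3067, lower 1530 to 2651). Array weights and leaving out 4C11+ replicate 1 or 2 moved it by more than 1.5 times, and no other setting did. The count against every other line (728, 315 and 413) became 1434 (736 and 698) with array quality weights and 3317 (1618 and 1699) with the melan-a line left out, where only 2 lines remain to be passed. Leaving out 1 library gave 348 to 950 (higher 99 to 408, lower 236 to 592), and a line left with 1 library was taken to vary like the others. The cause of the change with array weights was not tested.

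With the replicate number as a block, a paired analysis, 4989 and 647 genes passed in the 2 calls. Whether the numbers pair the cultures is not stated. Correlations of the deviations from line means, between libraries of different lines, ran from -0.226 to 0.388 for the same number. For different numbers they ran from -0.416 to 0.34. Of the 4856 genes, 4835 were also called with array weights, 4667 with the block, 2988 without 4C11+ replicate 1 and 3019 without 4C11+ replicate 2. Among 192 named genes and 4386 values, 4264 kept direction and call, 93 lost the call, 29 gained one and 0 reversed. With a whole line left out, 16 named genes lost and 0 gained the call without 4C. These numbers were 9 and 2 without 4C11-, and 4 and 6 without melan-a. Of 690 list medians under an alternative, 651 moved by less than the spread between replicates, and no scaling moved one by more. The medians of cadherins, acetylation enzymes and chemokines, all near 0, changed sign in some settings: cadherins to 0.05 with array weights and 0.13 without 4C11-, acetylation enzymes to 0.08 without 4C, and chemokines to 0.08 without melan-a replicate 2 and 0.17 without 4C. Depth limits genes near 3 reads, where differences are bounds.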

Other observations

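Imprinted genes moved in both directions. Of 36 listed 19 were measured, 6 were higher in 4C11+ than the mean of the other lines (31.6%, with 3 without 4C11+ replicate 1 or replicate 3) and 7 lower, Peg3 among them (36.8%), with a median of -0.22. Igf2, which encodes a growth factor expressed from the paternal copy, stood at 0.87 and -0.24 in melan-a, 4.38, 3.83 and 4.77 in 4C, and 8.72, 8.83 and 8.50 in 4C11-, and had no more than 3 reads in any 4C11+ library. It was highest in 4C11- and at least 4.42 below the mean in 4C11+ (adjusted p = 9.15e-07). Nespas, an antisense transcript of the Gnas locus, was at least 2.13 lower and Slc22a18, an organic cation transporter gene, at least 4.32 higher (adjusted p = 7.15e-06 and 0.00344), each with no 4C11+ library inside the range of the others. Slc22a18 had no more than 3 reads in any 4C or 4C11- library, so the filter sets its order against those lines. Whether reads were counted by strand is not stated, so the level of an antisense gene may hold reads of its partner. None of the 6 listed X inactivation and Y-linked genes was among those deposited.

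Of 20 listed immediate early and stress genes 19 were measured, 3 higher (15.8%, with 5 without 4C11- replicate 1 and 6 without 4C11+ replicate 3) and 4 lower (21.1%), with a median of -0.14. Hspa1b, a heat shock protein gene, was 2.68 ± 0.31 lower (adjusted p = 6.26e-05) and below every other library in all 3. Jun, an AP-1 component, was 2.48 ± 0.47 lower (adjusted p = 0.002), with 4C11+ replicate 3 at 5.38 and the other 4C11+ libraries at 3.13 and 3.24. Dusp1, a phosphatase of MAP kinases, was 2.42 ± 0.44 lower (adjusted p = 0.00142). Of 7 listed nuclear noncoding RNAs 3 were measured, 2 lower and 0 higher by limma (2 and 0 at an unadjusted p under 0.05), with a median of -1.83: Neat1, the scaffold of paraspeckles, by 1.83 ± 0.32 and Kcnq1ot1, an imprinted antisense RNA, by 2.55 ± 0.63 (adjusted p = 0.00105 and 0.00848).

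Of 19 listed clock genes 18 were measured, 3 higher (16.7%, with 1 without melan-a replicate 3 or 4C11- replicate 2 and 0 without 4C11+ replicate 1 or 2) and 2 lower (11.1%, with 4 without melan-a replicate 3), with a median of 0.12. Hlf, a PAR bZIP factor, stood at 3.97 and 2.41 in melan-a, 6.20, 5.84 and 6.26 in 4C, 4.85, 5.30 and 5.31 in 4C11-, and 1.18, 1.44 and 1.44 in 4C11+, 3.46 ± 0.31 lower and below every other library (adjusted p = 8.53e-06). Per3, a period gene, was 2.15 ± 0.33 lower (adjusted p = 0.000456). Dbp, another PAR bZIP factor, and Per1 were higher by 1.87 ± 0.48 and 1.54 ± 0.50 (adjusted p = 0.0111 and 0.0321), both overlapping other libraries. Dbp lost its call without 4C11+ replicate 1 (0.0851) and 4C11+ replicate 2 (0.0667), and Per1 without melan-a replicate 3 (0.0558), 4C replicate 3 (0.0539), 4C11- replicate 2 (0.0547), 4C11+ replicate 1 (0.176) and 4C11+ replicate 2 (0.169). Time of harvest is not given. Of 25 listed chemokines and cytokines 21 were measured, 4 higher (19%, with 2 and 1 without 4C11+ replicates 1 and 2) and 6 lower (28.6%), with a median of -0.20. Vegfc, a growth factor for lymphatic vessels, stood at 4.33 and 4.33 in melan-a and 3.96, 4.10 and 3.92 in 4C11+, and had no more than 3 reads in any 4C or 4C11- library, so that melan-a and 4C11+ both expressed it. The filter sets its order against 4C and 4C11-. Il34, a ligand of the Csf1 receptor, was at least 2.73 lower and below every other library (adjusted p = 0.00111). Cxcl14, a chemokine gene, was expressed in 4C and 4C11- and at no more than 3 reads in melan-a and 4C11+. Cxcl10, an interferon-induced chemokine gene, was 3.25 ± 0.79 higher (adjusted p = 0.00805), at 2.69, 5.90 and 4.99 in 4C11+, and lost its call without 4C11+ replicate 2 (0.0629).

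Array quality weights brought the higher and lower genes to 8 and 4 (44.4% and 22.2%) for the clock and 8 and 6 (42.1% and 31.6%) for the immediate early list, when 33.1% and 28% of all genes were called. With 4C left out 1 clock gene and 1 chemokine were higher, with 4C11- left out 1 clock gene was, and with melan-a left out 10 chemokines were lower.

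Each line was grown as replicate cultures of 1 line, so a difference between lines cannot be told apart from one between those cultures' histories. The 3 single-line comparisons share the 4C11+ libraries. Genomic DNA was not sequenced, and protein and pigment are not in these data.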
